A study of Mus musculus with 8 samples.

Results

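Expression of 6 genes of the sodium pump was followed across the cell clusters of the mouse striatum and across 8 inbred strains: Atp1b1 and Atp1b2, which encode beta subunits of the pump, and Nkain1, Nkain2, Nkain3 and Nkain4, which encode proteins named for their interaction with it. They are 6 of the 32285 genes counted. Nkain2 was chosen by its measured RNA level, which depended on strain in several clusters, so its values by strain are given as a description and without a test. The other 5 were taken as genes of the same families, with earlier results of these data known, and were tested where their counts allowed.

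Nuclear RNA and open chromatin were measured in the same nuclei of the striatum (10x Multiome), and the RNA counts are described here. The mice were 12 weeks old, the labels name no treatment, and they came from A/J, C57BL/6, 129S1/SvImJ, NOD/ShiLtJ, NZO/HlLtJ, CAST/EiJ, PWK/PhJ and WSB/EiJ, of which the last 3 are wild-derived. Each of 4 batches pooled 1 mouse of every strain, 4 males and 4 females, so a strain had 4 mice and the study 32. Nuclei were assigned to strains by genotype. Sex was not a term of the fits, and its part in the differences below was not tested. A mouse is the replicate throughout, values of a strain's mice are listed in the order of batches 1 to 4, and a level is in CPM, the counts of the gene per 1000000 RNA counts of that mouse in that cluster.

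The authors kept 55672 nuclei of 89339 barcodes in 18 annotated clusters, with 944 to 4416 nuclei per mouse. The median nucleus had 4329 RNA counts, and batch 3 was the shallowest at 3232. Of 54141 barcode sequences, 1517 occurred in more than 1 batch, and they were treated as separate nuclei. There were 9 clusters with at least 10 nuclei in at least 3 mice of every strain, and these were tested for strain. Their libraries ranged from 1710451 to 9416806 counts in Drd1+ neurons, 1251786 to 6803437 in Drd2+ neurons, 165465 to 1883033 in oligodendrocytes and 38252 to 1085998 in astrocytes. The labels were checked against lists of marker genes. Drd2+ neurons, oligodendrocytes, astrocytes, macrophages and endothelium ranked highest of the 18 clusters on their own list, while the Drd1+ list was at 639 CPM in Drd1+ neurons and 827 in Drd1+ neuron_2. The cluster named Polydendrocyte/Oligodendrocyte ranked highest on the list of oligodendrocyte precursors.

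The sodium pump, or Na,K-ATPase, moves sodium out of the cell and potassium in at the cost of ATP, and in the brain it restores the gradients that electrical signalling runs down. Its alpha subunit carries out transport, its beta subunit brings the alpha subunit to the membrane and affects its affinity for potassium, and small FXYD proteins adjust its kinetics. Atp1b2 was also described as an adhesion molecule on glia, and the NKAIN proteins are membrane proteins that bind the beta subunit of Atp1b1.

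In RefSeq's annotation of GRCm38.p6, Nkain2 spans chr10:31689310-32897174, which is 1208 kb and holds 107 of the authors' 291715 chromatin peaks. Nkain3 spans chr4:20111029-20780709, 670 kb with 89 peaks. The others are short: Nkain1 covers chr4:130530131-130574216 with 13 peaks, Nkain4 chr2:180934766-180954937 with 5, Atp1b1 chr1:164437099-164458355 with 7 and Atp1b2 chr11:69599728-69605978 with 3. Atp1b1 overlaps Nme7, Nkain2 overlaps Gm18189 and Gm18704, and Nkain3 overlaps Gm52761, Gm11872 and Gm11873; how reads in such overlaps were assigned is not given in the sources used here. Levels were not compared between genes, because nuclear counts also scale with the length of the gene.

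RefSeq's promoter table (GRCm38.p6) matched 3 of the 6 members: Nkain1, Nkain2 and Atp1b1. The 250 bases before the listed start are printed for Nkain2, the member chosen for its strain dependence, and for Atp1b1, a beta subunit with a called strain difference in 3 neuron clusters. Both genes lie on the minus strand, and the sequences run 5′ to 3′ toward the start. Capitals mark GGGCGG or its complement CCGCCC, the GC box, and ATTGG, the complement of the CCAAT box.

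Nkain2, chr10:32889916-32890165, minus strand: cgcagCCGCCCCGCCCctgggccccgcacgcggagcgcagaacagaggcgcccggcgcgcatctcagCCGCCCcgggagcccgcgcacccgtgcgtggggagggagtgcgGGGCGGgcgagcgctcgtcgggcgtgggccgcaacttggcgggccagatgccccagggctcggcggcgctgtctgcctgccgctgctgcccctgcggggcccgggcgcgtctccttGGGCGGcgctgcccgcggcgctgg

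Atp1b1, chr1:164458356-164458605, minus strand: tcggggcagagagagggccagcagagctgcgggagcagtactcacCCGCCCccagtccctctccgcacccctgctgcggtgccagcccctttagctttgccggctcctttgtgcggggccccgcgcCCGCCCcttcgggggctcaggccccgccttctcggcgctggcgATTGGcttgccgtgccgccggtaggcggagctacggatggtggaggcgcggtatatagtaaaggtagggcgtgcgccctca

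The Nkain2 stretch was 81.6% G or C, above 99.3% of the 32851 promoters of the table, and held 39 CpG and 5 GC boxes, of which the first pair overlap. A chromatin peak of the authors' list, chr10:32890002-32891000, shared 164 of its bases. The annotated gene extends beyond this start, so the stretch precedes the start of 1 transcript and lies inside the span of the gene. The Atp1b1 stretch was 70.4% G or C with 24 CpG, 2 GC boxes and 1 CCAAT box, and no listed peak overlapped it. Of all promoters of this length, 32.7% held a GC box on either strand and 33.8% a CCAAT box. TATAAA (12.4% of promoters), TGACGTCA (1.55%) and CACGTG (6.02%) were searched on both strands and were not in either stretch.

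By cluster, the members fell into glial, neuronal and broad patterns, as the plot of levels by cluster shows. These comparisons between clusters are descriptions over mice, without a test. Atp1b1, the most widespread beta subunit of the pump, was detected in every cluster and was highest in Nxph1+ interneurons. It averaged 643 CPM in Nxph1+ interneurons (SD 161, 32 mice), 527 in fibroblasts (2 mice), 500 in Drd1+ neuron_2 (SD 130), 460 and 408 in the Slc17a7+ clusters, 335 in Drd1+ neurons (SD 44.1), 311 in Drd2+ neurons (SD 30.4), 296 in astrocytes (SD 42.0) and 143 in oligodendrocytes (SD 42.0). It was higher in Nxph1+ interneurons than in Drd1+ neurons of the same mouse in 32 of 32 mice, and lower in Drd2+ than in Drd1+ neurons in 26 of 32, by 0.10 on the log2 scale (SD 0.11). The SDs over mice include differences between batches: in oligodendrocytes the batch 2 mouse was the highest for Atp1b1 in 8 of 8 strains. Statements on neighbours, here and below, are limited to clusters with at least 6 mice. No neighbours in the order of Atp1b1 differed by more than the larger of their SDs. Atp1b2 was at 488 CPM in astrocytes (SD 104), 103 in ependyma, 102 in mural cells, 80.6 in endothelium, 30.0 in oligodendrocytes, 11.7 in Drd1+ and 10.8 in Drd2+ neurons, and the step from astrocytes to ependyma exceeded the spread over mice.

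**Figure D1:**
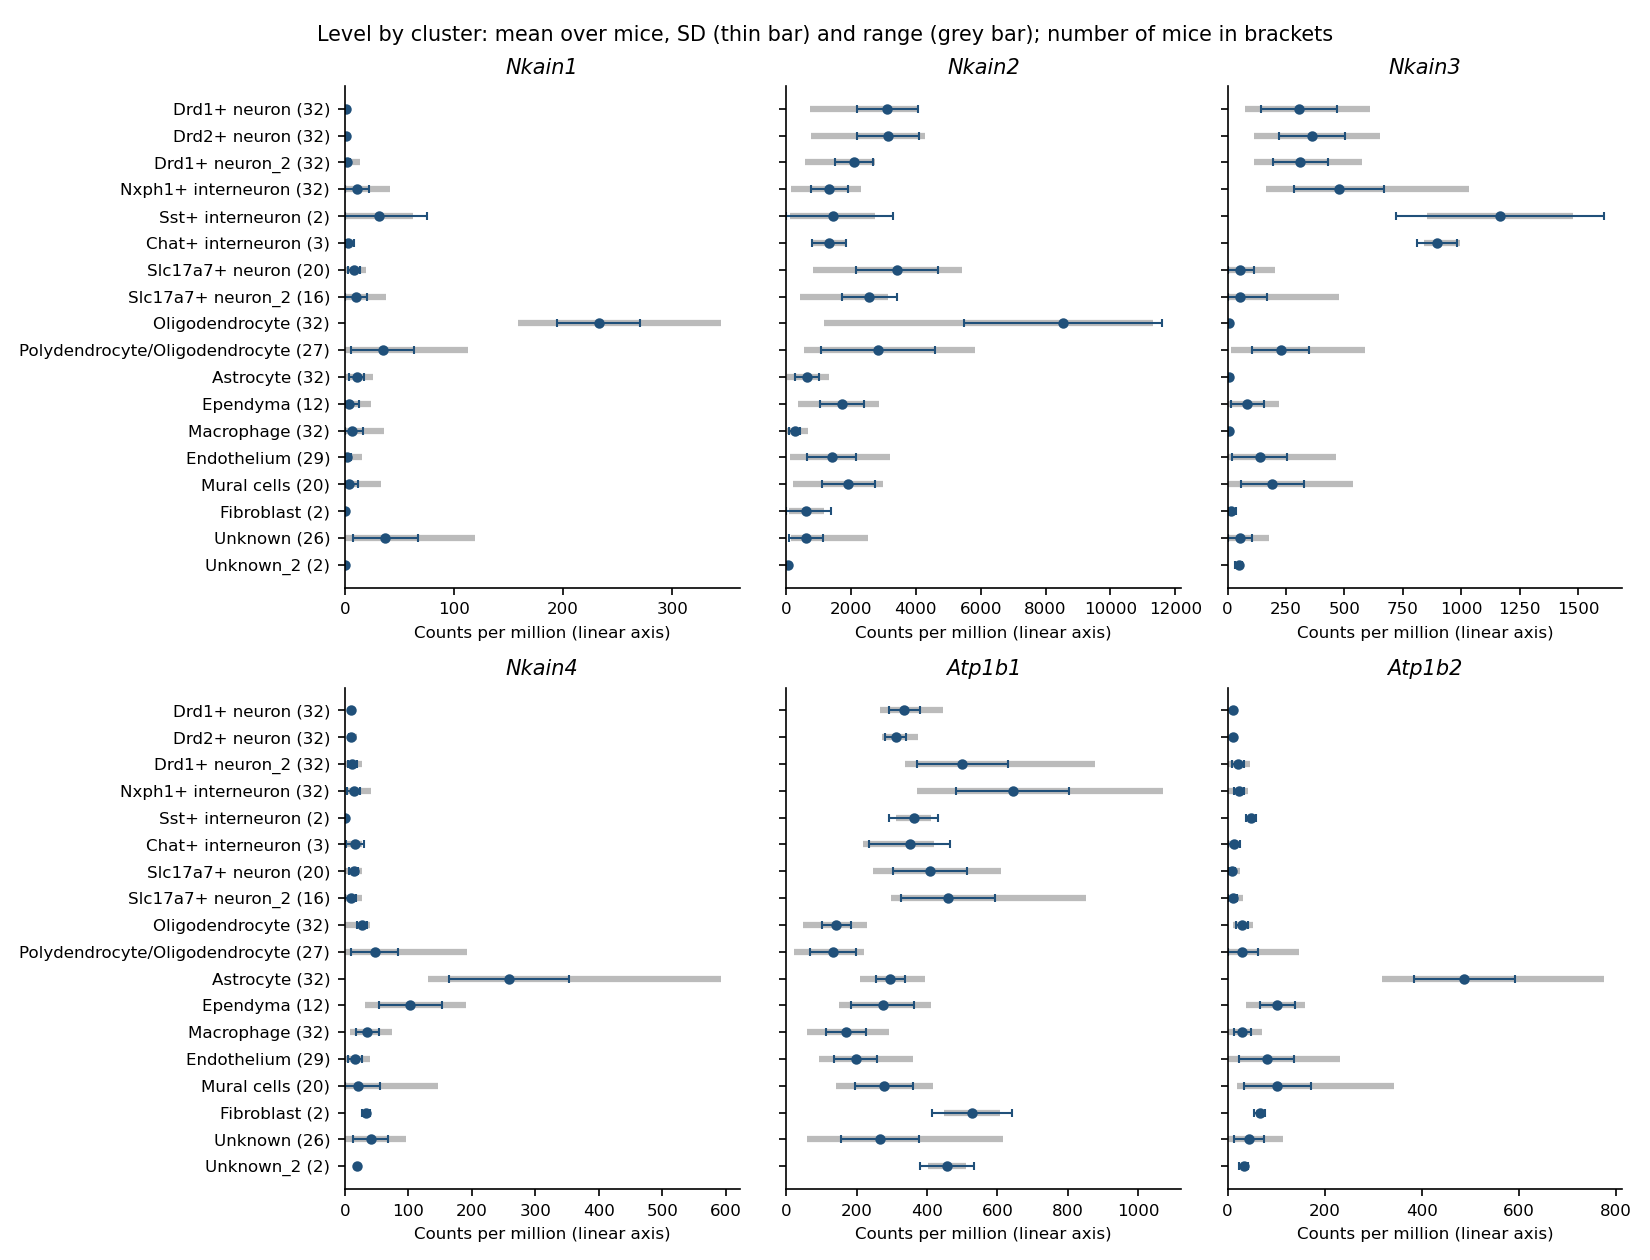
Level of each member gene (CPM, with the mean over mice as a point, SD as a thin bar cut at 0 and range as a thick grey bar) in each annotated cluster. Nkain1 and Nkain2 were highest in oligodendrocytes, Nkain4 and Atp1b2 in astrocytes, and Nkain3 and Atp1b1 in neuron clusters.

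Nkain1 was at 232 CPM in oligodendrocytes (SD 38.0, 32 mice), 37.2 in the cluster named Unknown, 34.8 in Polydendrocyte/Oligodendrocyte, 1.12 in Drd1+ neurons and 0.721 in Drd2+ neurons. It was higher in oligodendrocytes than in Drd1+ neurons in 32 of 32 mice. Nkain4 was at 258 CPM in astrocytes (SD 94.5), 103 in ependyma (SD 49.5), 46.8 in Polydendrocyte/Oligodendrocyte, 35.6 in macrophages, 26.9 in oligodendrocytes and 9.60 in Drd1+ neurons. The steps from astrocytes to ependyma and from ependyma to Polydendrocyte/Oligodendrocyte exceeded the spread over mice.

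Nkain2 was at 8546 CPM in oligodendrocytes (SD 3049), 3420 in Slc17a7+ neurons (20 mice), 3130 in Drd2+ neurons (SD 951), 3124 in Drd1+ neurons (SD 938), 2827 in Polydendrocyte/Oligodendrocyte, 2089 in Drd1+ neuron_2, 1329 in Nxph1+ interneurons, 645 in astrocytes and 264 in macrophages. It was higher in oligodendrocytes than in Drd1+ neurons in 32 of 32 mice, by a mean log2 difference of 1.37 (SD 0.32). Nkain3 was highest in interneurons and projection neurons, at 1165 CPM in Sst+ (2 mice), 896 in Chat+ (3 mice), 477 in Nxph1+ interneurons (SD 193), 363 in Drd2+ neurons (SD 142), 312 in Drd1+ neuron_2 (SD 118) and 306 in Drd1+ neurons (SD 162). It was lower, but counted, in Polydendrocyte/Oligodendrocyte (227.3 CPM), mural cells (192), endothelium (137) and ependyma (85.3), and the Slc17a7+ neuron clusters were below these at 51.7 each. The lowest of the well-sampled clusters were at 5.39 in astrocytes, 5.05 in oligodendrocytes and 4.21 in macrophages. Summed Drd2+ neuron markers were 736 CPM in mural cells, 459 in endothelium, 290 in ependyma and 219 in Polydendrocyte/Oligodendrocyte, against 1884 in Drd2+ neurons. They were 287 in macrophages, 245 in oligodendrocytes and 232 in astrocytes. The part of neuronal RNA in the Nkain3 values of non-neuronal clusters was not tested. No neighbours in the order of Nkain3 differed by more than the larger SD.

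Nkain2 was low in CAST/EiJ. In Drd1+ neurons, the main output neurons of the direct pathway, the CAST/EiJ mice had 760.3, 742.1, 810.7 and 840.8 CPM, a mean of 788.5 (SD 45.4). The other 28 mice lay between 2933 and 4107 CPM with a median of 3381. The groups did not overlap, and the CAST/EiJ mean was 22.8% of that of the other strains, a 4.39-fold difference. The other strains were close to each other: NZO/HlLtJ had 4107, 3867, 3670 and 3660 CPM at the top, and PWK/PhJ had 3128, 3382, 2933 and 3347 at the bottom. Every neighbouring pair in the order of these 7 strains overlapped.

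Drd2+ neurons, the output neurons of the indirect pathway, had nearly the same values. The CAST/EiJ mice had 803.8, 810.5, 766.9 and 876.2 CPM, against 2927 to 4273 with a median of 3413 in the other 28, so their mean was 23.5% of that of the other strains. In both kinds of neuron each CAST/EiJ mouse was below every other mouse.

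**Figure D2:**
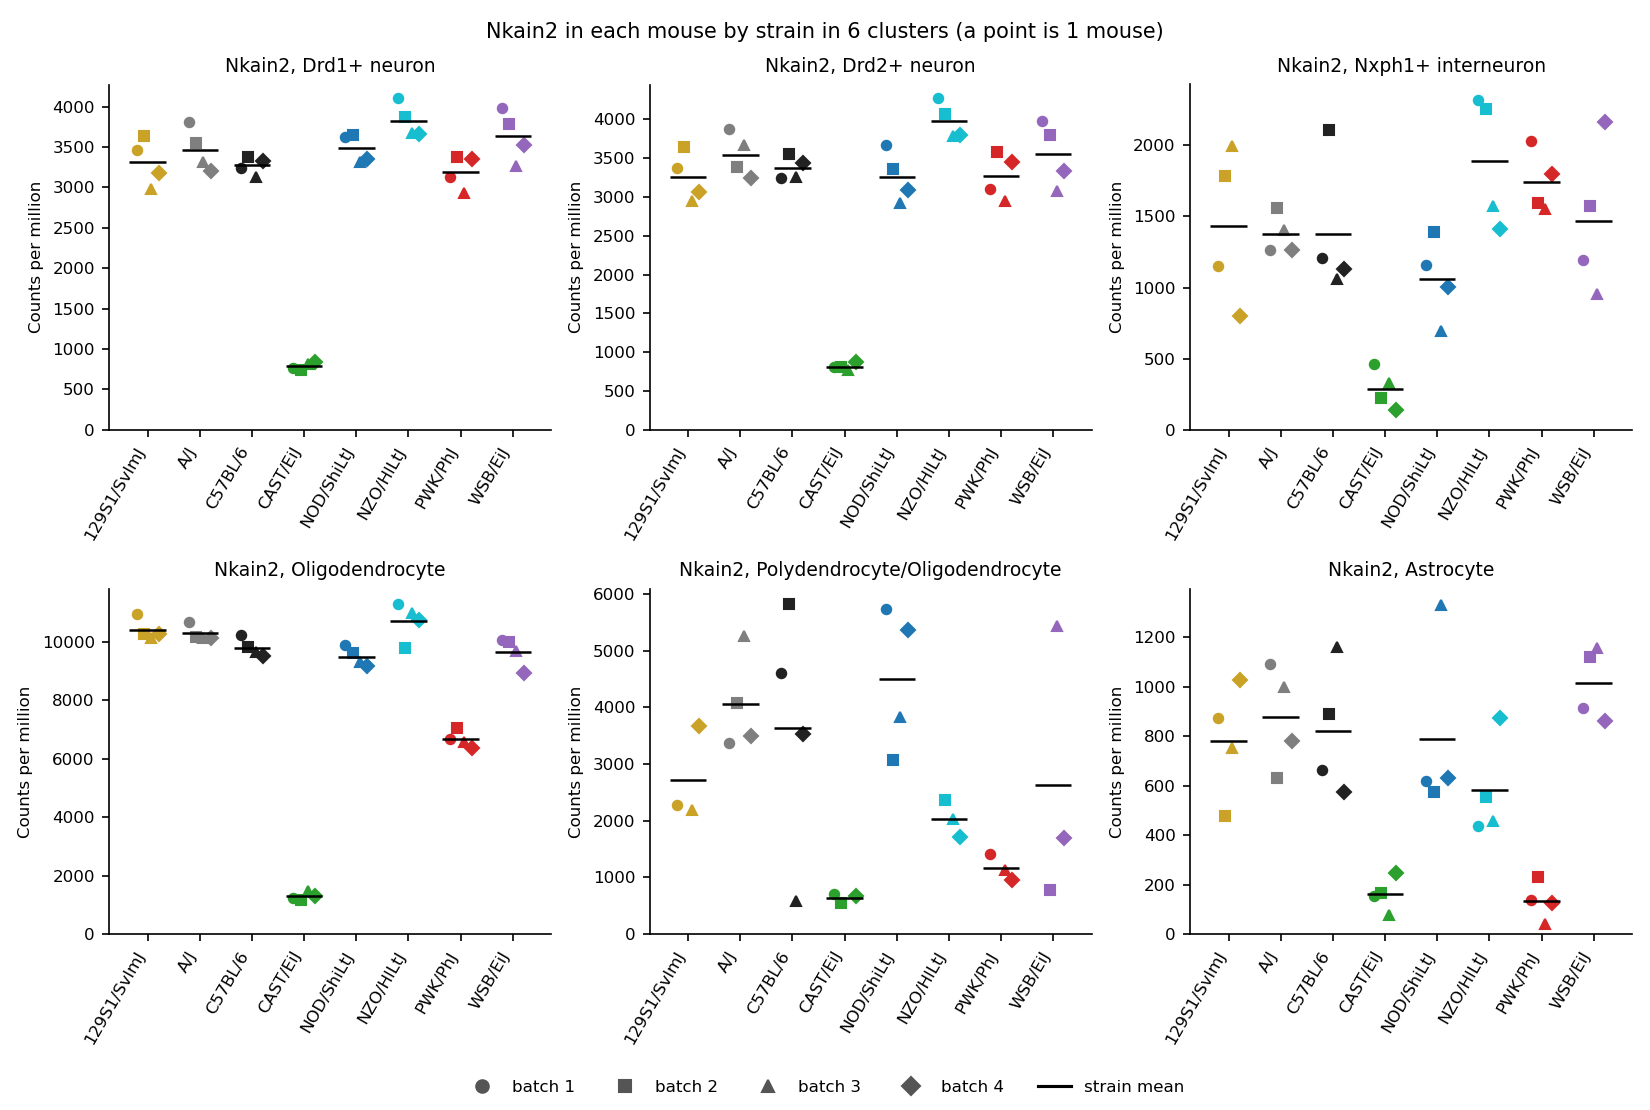
Nkain2 level (CPM) of each mouse by strain in 6 clusters; points are mice and bars strain means. CAST/EiJ lies below every other strain in neurons and oligodendrocytes, and PWK/PhJ lies between in oligodendrocytes and with CAST/EiJ in astrocytes.

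In oligodendrocytes, where Nkain2 was highest, the strains formed 3 levels. CAST/EiJ had 1248, 1152, 1470 and 1307 CPM (mean 1294, SD 133), 13.5% of the mean of the other strains. PWK/PhJ had 6668, 7051, 6594 and 6361 CPM (mean 6668, SD 287). All mice of the other 6 strains were above both, with strain means from 9503 in NOD/ShiLtJ to 10708 in NZO/HlLtJ, and the lowest single mouse of these, WSB/EiJ in batch 4, at 8930. The intermediate level of PWK/PhJ was not seen in neurons, where its mice overlapped those of the next strain. Summed oligodendrocyte markers in this cluster were between 20032 and 22747 CPM by strain, with CAST/EiJ at 20915 and PWK/PhJ highest.

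In astrocytes CAST/EiJ and PWK/PhJ were both low. CAST/EiJ had 154.9, 167.2, 78.43 and 245.4 CPM, and PWK/PhJ had 137.4, 229.2, 39.99 and 126.9. The next strain, NZO/HlLtJ, had 439.3, 555, 458.4 and 874.2 CPM, and WSB/EiJ had the highest mean, 1014. Thus the mice of these 2 wild-derived strains were below the other 24, and they overlapped each other. The astrocyte cluster also held oligodendrocyte markers, at a summed 3596 to 4181 CPM by strain, with CAST/EiJ at 3780 and PWK/PhJ at 3699. Markers of oligodendrocyte precursors were lowest in CAST/EiJ, at 19.6 CPM, with PWK/PhJ at 35.7 and the other strains at 38.4 to 83.2. The part of these cells in the astrocyte values was not tested.

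The other fitted clusters held the same order in part. In Drd1+ neuron_2, which led on markers of eccentric projection neurons, CAST/EiJ lay between 574.4 and 793.3 CPM and the other strains between 1795 and 2738. Nxph1+ interneurons had 141.5 to 464.1 CPM in CAST/EiJ against 691.6 to 2318. Endothelium had 123.4 to 231.1 CPM in 3 CAST/EiJ mice against 771.6 to 3216. CAST/EiJ had no batch 3 mouse there, and batch 3 held the highest Nkain2 value in 5 of the 5 strains with 4 mice. Summed neuron markers in endothelium were also lowest in CAST/EiJ, at 883 CPM against 1271 to 1696 in the other strains, and their part in the difference was not tested. In Polydendrocyte/Oligodendrocyte the 3 CAST/EiJ mice had 542.7 to 715.3 CPM, and 1 C57BL/6 mouse at 578.3 fell among them. The 3 PWK/PhJ mice of that cluster had 960.8 to 1421 CPM, above CAST/EiJ and below the NZO/HlLtJ mice, as in oligodendrocytes, but the C57BL/6 mouse and 1 WSB/EiJ mouse (770.6) lay below them. The part of oligodendrocyte RNA in the values of that cluster was not tested. Macrophages, where Nkain2 was lowest, overlapped. In all, every CAST/EiJ mouse was below every other mouse in 6 of the 9 clusters. These clusters come from the same mice, so they are not separate observations. The share of all genes with such a gap was not counted.

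**Figure D3:**
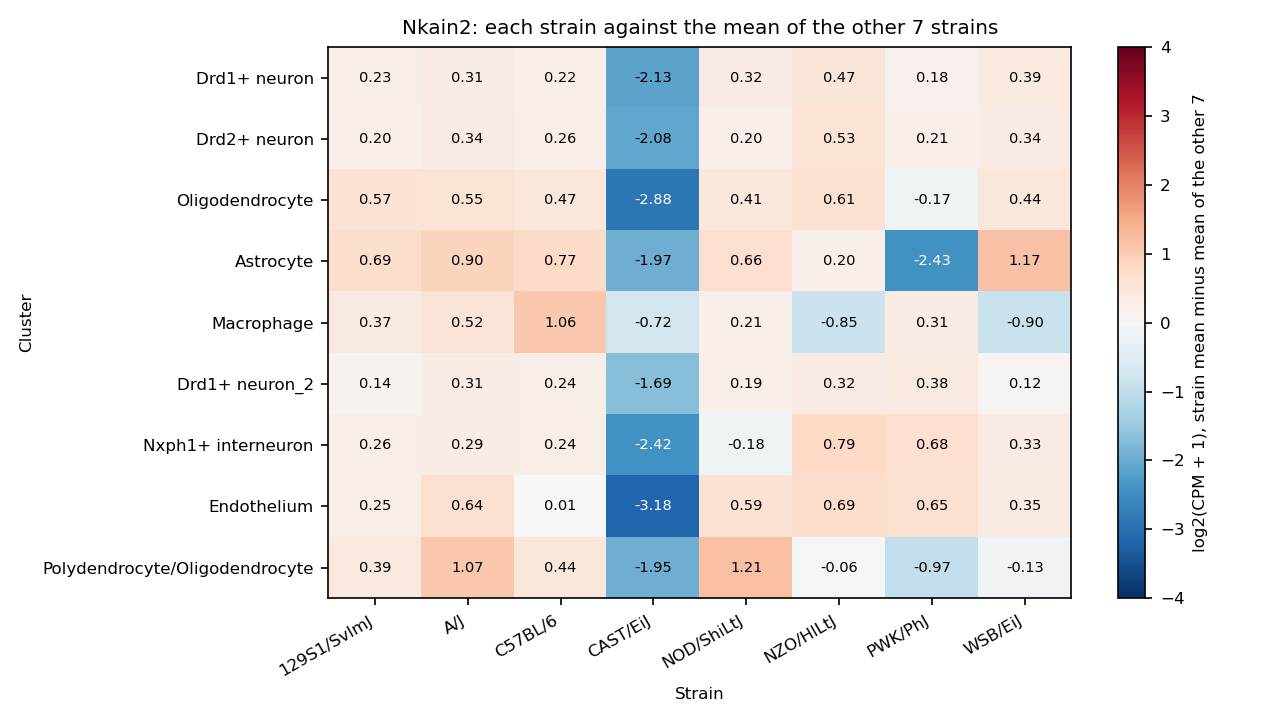
Nkain2 in each strain minus the mean of the other 7 strains (log2 of CPM + 1) in the 9 fitted clusters. CAST/EiJ is negative in all 9, from -0.72 in macrophages to -3.18 in endothelium, where it had no batch 3 mouse. Values above 0 in other strains include CAST/EiJ in their comparison mean.

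The same counts were also described nucleus by nucleus, which is no separate support for the difference that Nkain2 was chosen for. After each nucleus was thinned to 1000 RNA counts, 47.3% of CAST/EiJ Drd1+ nuclei held at least 1 Nkain2 count, against 92.7% to 95.4% in the other strains; without thinning these were 92.9% and 99.7% to 100%. Among thinned oligodendrocyte nuclei the share was 61.6% in CAST/EiJ and 99.3% in PWK/PhJ. The mean per nucleus was 1.23 counts for CAST/EiJ, 6.76 for PWK/PhJ and 9.41 to 10.4 elsewhere. Macrophages had the lowest Nkain2 level of the fitted clusters. Their thinned nuclei held an Nkain2 count in 4.36% to 8.70% in 7 strains. In PWK/PhJ the share was 14.3%, and 1 mouse had 34.0%. The CAST/EiJ shares in neurons and oligodendrocytes were above all of these macrophage shares. What part of them is RNA from other cells was not tested. In astrocytes the share was 12.7% in CAST/EiJ, whose own macrophages had 6.39%, and 5.86% in PWK/PhJ, below its macrophages; the other strains had 28.9% to 44.5%. Up to 153 nuclei of a strain were too shallow to be thinned, in oligodendrocytes. Median depth in Drd1+ neurons was 5892 to 7049 counts by strain.

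Strain was then tested in each cluster with edgeR's quasi-likelihood test, with batch as a second term and Benjamini-Hochberg adjustment over all genes of that cluster. Calls were made below an adjusted p of 0.05. In Drd1+ neurons 3 of the 4 members tested were called, where 61.7% of all 13431 genes were. In Drd2+ neurons it was 2 of 4 (55.9% of all genes), in oligodendrocytes 1 of 4 (34.8%), in astrocytes 2 of 3 (21.5%) and in Drd1+ neuron_2 2 of 2 (17.3%). None was called in macrophages (0 of 1; 24.8%), Nxph1+ interneurons (0 of 2; 1.53%), endothelium (0 of 3; 3.23%) or Polydendrocyte/Oligodendrocyte (0 of 2; 1.24%). These counts leave out Nkain2 and members whose counts were too low to be tested, so a share is read only against its own background.

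Each strain was also compared with the mean of the other 7, in 4 clusters, and all 8 such contrasts share mice. In Drd1+ neurons 7 of 32 member contrasts were called higher, against 11.3% of all contrasts, and 4 lower, against 9.12%. In Drd2+ neurons 4 were higher and 3 lower (9.94% and 7.78% of all), in oligodendrocytes 1 and 1 (6.08% and 4.42%), and of 24 in astrocytes 2 and 1 (2.95% and 2.01%). Most member contrasts called in Drd1+ and Drd2+ neurons were of Nkain3, so these shares do not speak for the other members. Differences below are on the log2 scale with the standard error (SE) and the adjusted p of that edgeR test.

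Atp1b1 differed between strains by small amounts in both kinds of projection neuron. In Drd1+ neurons PWK/PhJ had 346.8, 391.3, 445.9 and 375.6 CPM and NZO/HlLtJ 272.5, 265.3, 366 and 273.8, the highest and lowest strain means (390 and 294). Their values overlapped through the NZO/HlLtJ mouse of batch 3, and in 7 of 8 strains the mouse of batch 3 was the highest for this gene. The strain term was called in edgeR (adjusted p = 0.000225), with PWK/PhJ higher by 0.20 (SE 0.051, adjusted p = 0.00154) and NZO/HlLtJ lower by a difference of -0.23 (SE 0.054, adjusted p = 0.0017). In Drd2+ neurons the strain means ran from 281 CPM in C57BL/6 to 344 in PWK/PhJ and the strain term had adjusted p = 0.0225 in edgeR. That call was lost in edgeR without batch 1 (adjusted p = 0.124), without batch 2 (0.0896), without batch 4 (0.149), without the filter on low counts (0.128) and without the batch term (0.124).

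Drd1+ neuron_2 had a wider range of Atp1b1. PWK/PhJ had 574.7, 877.6, 771.6 and 727.1 CPM and C57BL/6 372.2, 360.1, 421.8 and 371.9, with no overlap between these 2 strains. WSB/EiJ was second with a mean of 543 CPM and overlapped PWK/PhJ. The strain term was called in edgeR (adjusted p = 3.48e-05), also with each batch left out in turn. In astrocytes and oligodendrocytes Atp1b1 was not called (adjusted p = 0.442 and 0.982 in edgeR).

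Atp1b2 was highest in NOD/ShiLtJ among astrocytes. NOD/ShiLtJ had 550.8, 625, 775 and 697.5 CPM (mean 662, SD 96.2), and CAST/EiJ followed with 531, 550.5, 601.3 and 615. C57BL/6 was lowest at 467.5, 436.5, 426.5 and 318.4 CPM. NOD/ShiLtJ and CAST/EiJ overlapped each other, and both were above every C57BL/6 mouse. The strain term had adjusted p = 0.000542 in edgeR, and NOD/ShiLtJ was higher than the mean of the others by 0.51 (SE 0.10, adjusted p = 0.000349). Summed astrocyte markers in this cluster were 11169 CPM in CAST/EiJ and 10317 in NOD/ShiLtJ, against 9114 to 10259 in the others; their part in the difference was not tested.

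In Drd1+ and Drd2+ neurons Atp1b2 was low, and CAST/EiJ had the highest mean. In Drd1+ neurons CAST/EiJ had 18.56, 11.44, 16.29 and 14.73 CPM (mean 15.3), and C57BL/6 the lowest mean at 9.47. CAST/EiJ was higher than the mean of the others by 0.47 in Drd1+ neurons (SE 0.14, adjusted p = 0.0068) and 0.44 in Drd2+ neurons (SE 0.16, adjusted p = 0.0317), by the edgeR contrasts. The strain term was called in Drd1+ neurons (adjusted p = 0.024) but in edgeR not without batch 1 (0.364) or batch 3 (0.189), and not in Drd2+ neurons (0.0654). Summed astrocyte markers in Drd1+ neurons were 161 to 198 CPM by strain, with CAST/EiJ at 173.

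**Figure D4:**
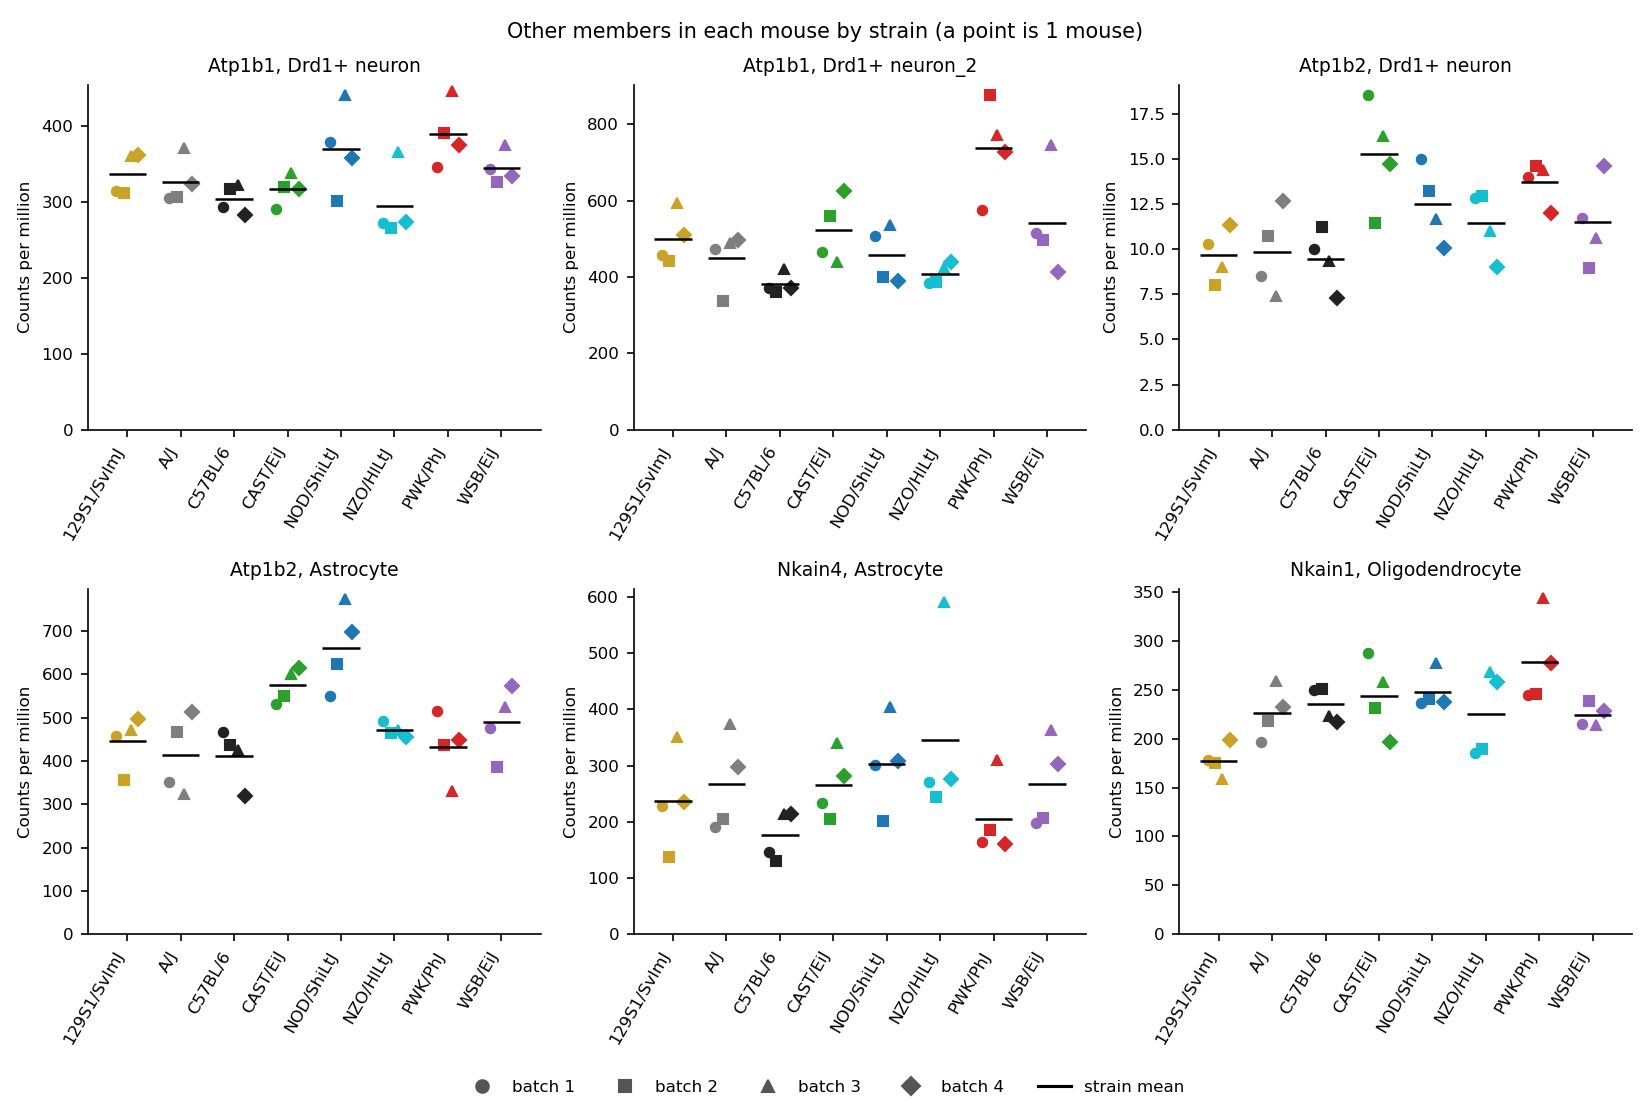
Level (CPM) of each mouse by strain for Atp1b1 in Drd1+ neurons and Drd1+ neuron_2, Atp1b2 in Drd1+ neurons and astrocytes, Nkain4 in astrocytes and Nkain1 in oligodendrocytes; bars are strain means. Most strains overlap in each panel; those that do not include PWK/PhJ and C57BL/6 for Atp1b1 in Drd1+ neuron_2.

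In Drd1+ neurons Nkain3 had the widest range over strains of the members tested. NZO/HlLtJ had 578.3, 534, 608.9 and 460.7 CPM (mean 545.5, SD 64.4). A/J averaged 450 CPM (SD 14.9), 129S1/SvImJ 393 (SD 117), NOD/ShiLtJ 366 (SD 28.1) and C57BL/6 305 (SD 23.7). PWK/PhJ had 78.89, 181.2, 136 and 212.7 CPM. The wild-derived strains were lowest: every one of their 12 mice was below every other mouse, WSB/EiJ with 195.9, 133.8, 101.9 and 116.9 CPM and CAST/EiJ with 91, 126.1, 74.39 and 94.92. The highest strain mean was 5.65 times the lowest.

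The strain term of Nkain3 had adjusted p = 1.18e-08 in Drd1+ neurons and 4.25e-08 in Drd2+ neurons in edgeR, and it was called under every alternative tried in both. In Drd1+ neurons CAST/EiJ differed from the mean of the other strains by -1.62 (SE 0.20, adjusted p = 1.03e-06), WSB/EiJ by -1.09 (SE 0.19, adjusted p = 0.000206) and PWK/PhJ by -0.95 (SE 0.19, adjusted p = 0.000346), by edgeR contrasts. Higher values were called for NZO/HlLtJ at 1.21 (SE 0.15), A/J at 0.94 (SE 0.15), 129S1/SvImJ at 0.68 (SE 0.16) and NOD/ShiLtJ at 0.53 (SE 0.16). The call for NOD/ShiLtJ was lost in edgeR without batch 2, 3 or 4, and that for 129S1/SvImJ without batch 2.

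In Drd2+ neurons the order of strains was the same and the range narrower. NZO/HlLtJ had 647.2, 553.8, 653.2 and 558.2 CPM, and no other mouse reached this level. CAST/EiJ had 189.7, 226.1, 111.8 and 181.1 CPM, and PWK/PhJ had 223, 258.5, 281.8 and 366.6, which overlapped C57BL/6. The highest mean was 3.40 times the lowest. CAST/EiJ differed from the mean of the others by -1.04 (SE 0.14, adjusted p = 3.25e-06) in edgeR, WSB/EiJ by -0.73 and PWK/PhJ by -0.35, the last lost without batch 1 or 2.

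The strain dependence of Nkain3 differed between the 2 kinds of neuron. In CAST/EiJ the level in Drd2+ neurons was 1.80 times that in Drd1+ neurons of the same mouse, in PWK/PhJ 1.94 times and in WSB/EiJ 1.64 times. In the other 5 strains the mean log2 difference lay between -0.01 in C57BL/6 and 0.20 in 129S1/SvImJ. The level was higher in Drd2+ neurons in 27 of 32 mice, including 4 of 4 in CAST/EiJ, PWK/PhJ, WSB/EiJ, NOD/ShiLtJ and NZO/HlLtJ, so the 5 strains differed in the size of the difference, not in its sign. The interaction of strain and cluster, with the mouse as a block, called 1 of the 4 members tested, Nkain3 (adjusted p = 7.74e-06 in edgeR), where 4.58% of 13791 genes were called. Atp1b1 (adjusted p = 0.0954), Atp1b2 (0.875) and Nkain4 (0.945) were not called. Without the block Nkain3 was not called either (adjusted p = 0.413 in edgeR), and Atp1b1 was called without batch 2 (0.017).

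**Figure D5:**
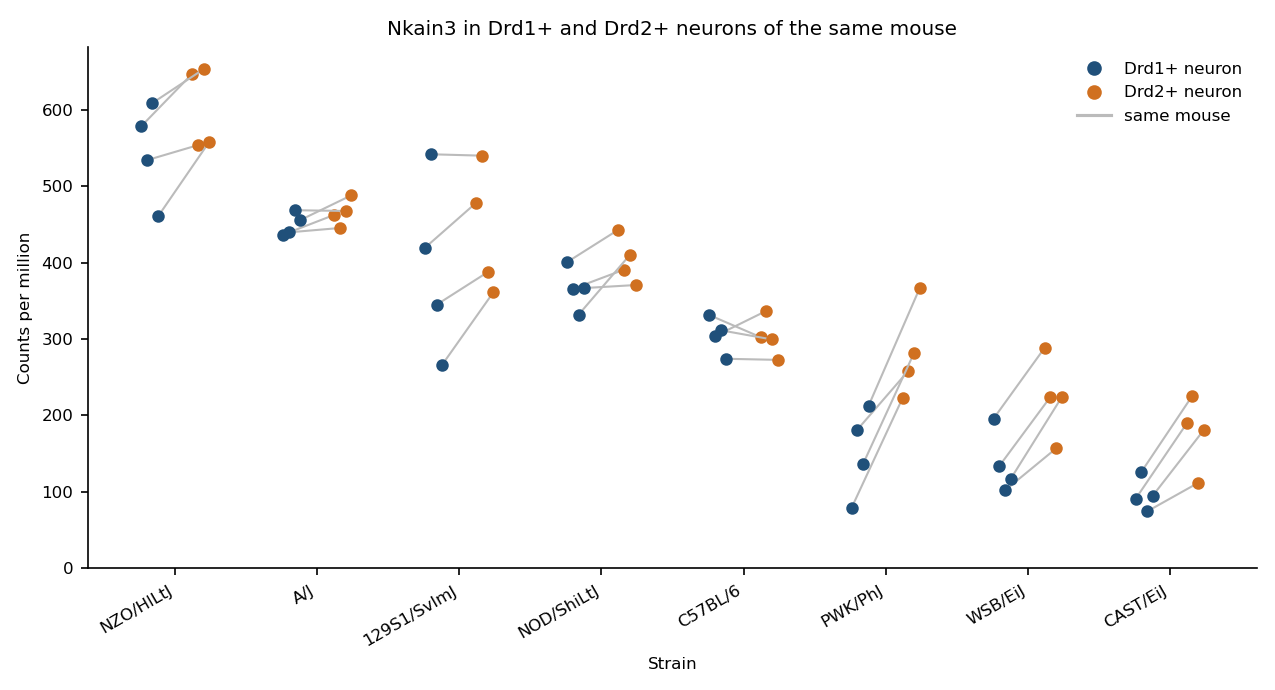
Nkain3 level (CPM, y axis) by strain (x axis) in Drd1+ neurons (blue) and Drd2+ neurons (orange), with a grey line joining both values of a mouse. The CAST/EiJ, PWK/PhJ and WSB/EiJ mice were all higher in Drd2+ neurons and at low levels. Log2 differences were smaller in the other strains.

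Thinned to 1000 counts, Drd1+ nuclei with at least 1 Nkain3 count made up 7.31% in CAST/EiJ, 11.7% in WSB/EiJ, 12.8% in PWK/PhJ, with the other strains at 22.3% to 37.7%. In Drd2+ nuclei these were 13.4% for CAST/EiJ, 17% for WSB/EiJ, 21.3% for PWK/PhJ and 22.4% to 39.2% elsewhere. Thinned macrophages had 0% to 1.17% and oligodendrocytes 0.26% to 0.68%, below the neuronal shares of every strain. Both clusters were among the lowest for Nkain3, so this comparison cannot show what part of the neuronal shares is RNA from other cells. Nkain3 was also called in Drd1+ neuron_2 (adjusted p = 0.0427 in edgeR), where NZO/HlLtJ had the highest mean, 486 CPM, and C57BL/6 the lowest, 192. That call was lost without batch 1 (0.236), batch 2 (0.21) or batch 3 (0.378). In endothelium the 3 CAST/EiJ mice, of batches 1, 2 and 4, had 0, 18.39 and 8.89 CPM, below all others, and NZO/HlLtJ averaged 264. Batch 3, which CAST/EiJ lacked there, held the highest Nkain3 value in 4 of the 5 strains with 4 mice. The strain term was not called in edgeR (adjusted p = 0.145), and it was without batch 2 (0.000469). Neuron markers in that cluster ranged as given above for Nkain2.

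Nkain4 differed between strains in astrocytes. NZO/HlLtJ had 271.7, 244, 591.7 and 275.4 CPM (mean 346), and C57BL/6 had 146.5, 130.6, 213.2 and 214.1 (mean 176). The 2 strains did not overlap. The mouse of batch 3 was the highest in 7 of 8 strains for this gene, and its part in the strain difference was measured by leaving it out. The strain term had adjusted p = 2.58e-05 in edgeR. C57BL/6 differed from the mean of the others by -0.57 (SE 0.13, adjusted p = 0.00184) and NZO/HlLtJ by 0.45 (SE 0.11, adjusted p = 0.00347), the latter 0.31 without batch 3 (adjusted p = 0.157). Without the batch term the strain term of Nkain4 was not called in edgeR (adjusted p = 0.266). In neurons Nkain4 was low and its strain term was not called (adjusted p = 0.152 in Drd1+ and 0.636 in Drd2+ neurons, edgeR). The NZO/HlLtJ contrast in Drd1+ neurons was called at 0.43 (SE 0.14, adjusted p = 0.0232), and lost with any 1 batch left out (adjusted p 0.0519 to 0.0925 in edgeR).

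Nkain1 differed between strains in oligodendrocytes. The 129S1/SvImJ mice had 178, 175.1, 158.9 and 199.3 CPM, the lowest mean (178, SD 16.6), and PWK/PhJ had 245.3, 245.6, 344.5 and 277.7, the highest (278, SD 46.7). These 2 strains did not overlap, while 129S1/SvImJ overlapped NZO/HlLtJ, A/J and CAST/EiJ. The strain term had adjusted p = 0.01 in edgeR, and was lost without batch 2 (0.0509), batch 3 (0.166) or the batch term (0.0514). 129S1/SvImJ differed from the mean of the others by -0.39 (SE 0.093, adjusted p = 0.002) and PWK/PhJ by 0.26 (SE 0.094, adjusted p = 0.0443). Without batch 3 the 129S1/SvImJ contrast had adjusted p = 0.0658 in edgeR.

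Atp1b3, which encodes a further beta subunit, Atp1b4, which is named as one, and Fxyd1 to Fxyd7 were followed as 9 related genes. In Drd1+ neurons 6 of the 7 tested had a called strain term, in Drd2+ neurons 4 of 6, and in Drd1+ neuron_2 1 of 1. Among glia and macrophages it was 1 of 4 for oligodendrocytes, 1 of 5 for astrocytes and 1 of 2 for macrophages, and in Nxph1+ interneurons and endothelium none of those tested was called. The backgrounds are those given for the members. Among contrasts, 11 of 56 were higher and 8 lower for Drd1+ neurons, 6 and 4 of 48 for Drd2+ neurons, 0 and 2 of 32 for oligodendrocytes, and 1 and 0 of 40 for astrocytes. No gene of these was called in the interaction (0 of 7). The median size of their contrasts on the log2 scale was 0.35 for Drd1+ neurons (0.16 over all genes tested), 0.18 for Drd2+ neurons (0.16), 0.17 for oligodendrocytes (0.17) and 0.21 for astrocytes (0.19). For the members other than Nkain2 it was 0.19, 0.14, 0.08 and 0.13, in the same order of clusters. Some of the related genes were low in Drd1+ neurons, such as Fxyd4 with strain means of 0.84 to 4.03 CPM and Fxyd6 with 3.00 to 9.41. The medians over all genes were not matched on level.

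Atp1b3 was lowest in NZO/HlLtJ in oligodendrocytes: 133, 120.3, 201.9 and 141.8 CPM, against a mean of 224 in the next strain, C57BL/6. The edgeR contrast was -0.71 (SE 0.10, adjusted p = 2.97e-08), and NZO/HlLtJ was also lower in Drd1+ (-0.19) and Drd2+ neurons (-0.34). Fxyd2, the gamma subunit known from the kidney pump, had a called strain term in Drd1+ neurons (adjusted p = 5.75e-12 in edgeR). It averaged 24.7 CPM in 129S1/SvImJ (log2 difference 0.91), 22.9 in CAST/EiJ (0.80) and 8.46 in A/J (-0.80). Fxyd6, the phosphohippolin gene, averaged 9.41 CPM in CAST/EiJ (difference 1.16) and 3.00 in A/J. In astrocytes Fxyd1, the gene of phospholemman, was higher in CAST/EiJ by 0.62 (adjusted p = 3.12e-05 in edgeR), with 263.6, 321.6, 156.9 and 463.5 CPM against strain means of 188 to 250 elsewhere. Summed astrocyte markers were also highest in CAST/EiJ, as given for Atp1b2, and their part was not tested.

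The genes most like each member other than Nkain1, which was not tested there, over the 32 mice in Drd1+ neurons were ranked by Pearson correlation of log2 CPM with batch means removed, among 9040 genes, as a description; the values share libraries and strains. For Nkain2 these were Gm42722 (0.97), Inha (0.96) and Pifo (0.95), for Nkain3 Sema6d (0.90), Glra2 (0.89) and Slc44a5 (0.88), and for Nkain4 Slc16a4 (0.72), Zfp335os (0.69) and Soga1 (0.68). Nkain2 set the CAST/EiJ mice apart from all others here, so a gene that differs in CAST/EiJ alone can rank high for it. Among the genes most like Atp1b1 were Dnlz (0.73) and Matk (0.70). Atp1b2 was most like Dse (0.70), Gm44040 (0.69) and Tada3 (0.66). Among the members, Nkain2 and Nkain3 had 0.62, and Atp1b2 had -0.53 with each of them. Atp1b2 in astrocytes was most like Cldn10 (0.79), Ssr3 (0.66) and Tmem176a (0.65), among 8200 genes.

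Over the 18 clusters, on log2 of the mean CPM + 1 and among 16463 genes, Nkain1 was most like Cdh20 (0.93), Gal3st1 (0.89), an enzyme of sulfatide synthesis in myelin, and Prox1 (0.85). Nkain2 was most like Prickle2 (0.92), Slc24a2 (0.89) and Ncam2 (0.89), and Nkain3 like Dpp6 (0.94), a potassium channel partner, Plppr1 (0.92) and Xkr6 (0.91). Nkain4 was most like Sugct (0.96), Fads2 (0.93) and F3 (0.92), and Atp1b1 like Herc3 (0.84), Igf2bp3 (0.83) and Gm14827 (0.80). Atp1b2 was most like Prdx6 (0.89), Plpp3 (0.89) and Sparcl1 (0.88). Clusters of few mice (Sst+ and Chat+ interneurons, fibroblasts and Unknown_2) weigh as much as the others in these correlations.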

How the data were processed

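The deposited counts are whole numbers of RNA molecules per gene and nucleus. Per the submitters' processing notes, reads were handled with bcl2fastq 2.20.0.422 and Cell Ranger ARC 2.0.0 on mm10. Because all strains were counted on that build, a strain's RNA level and the share of its reads that could be counted cannot be told apart. The authors assigned nuclei to strains with Demuxlet, removed doublets and annotated clusters, per the labels' protocols; their deposited annotation, with cluster, strain and batch of each nucleus (unit other), was used as given. It writes C57BL/6NJ where the design text has C57BL/6J, so the strain is called C57BL/6 here. Genes below edgeR's filterByExpr were not tested.

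Counts were summed per mouse and cluster where at least 10 nuclei were present. Strain was tested in edgeR 4.0.16 (R 4.3.3; TMM scaling, robust quasi-likelihood, strain plus batch, Benjamini-Hochberg over all genes) in 9 clusters; 9 had too few mice. The interaction used both projection neuron clusters with the mouse as a block. The replicate number is the batch, per the labels, and deviations from strain means in Drd1+ neurons correlated at a mean of 0.10, 0.15, 0.18 and 0.06 within batches 1 to 4 and -0.04 between. DESeq2 1.42.0, its size factors, no filter, no batch term (for the interaction, no mouse block), at least 20 nuclei and leaving out each batch were alternatives. The members, lists and named genes were chosen with earlier results of these data known. Named were the 6 members, 9 further genes named for beta subunits or FXYD proteins, and the 3 genes of at least 10 CPM most correlated with each member. Other genes of the list drawn up, and 1 of the correlated genes, are not reported here. The fits were tested on simulated data with known strain differences. Those data held no batch effect and no effect shared by both clusters of a mouse, so they did not check these terms.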

Additional observations from a re-analysis of the deposited data

Results flagged for a closer look

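In 9 of 112 groups of 4 mice, 1 mouse lay far from the other 3 of its strain by Dixon's criterion; chance gives about 1 in 20 groups. Of these, 2 concerned Nkain2 in oligodendrocytes, where the batch 1 mice of 129S1/SvImJ (10955 CPM, others 10148 to 10273) and A/J (10699, others 10145 to 10190) were high. In astrocytes the NOD/ShiLtJ mouse of batch 3 had 1332 CPM of Nkain2, against 575 to 631 in the others.

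For Atp1b1 the NZO/HlLtJ mouse of batch 3 was high in Drd1+ neurons, at 366 CPM, and in Drd2+ neurons, at 344 CPM, and the A/J mouse of batch 2 was low in Drd1+ neuron_2, at 339 CPM. Nkain4 in astrocytes was high in batch 3 for NZO/HlLtJ (592 CPM, others 244 to 275) and PWK/PhJ (310 CPM, others 160 to 186). Nkain1 in oligodendrocytes was high in the NOD/ShiLtJ mouse of batch 3, at 277 CPM. Batch 3 had the lowest median count per nucleus of the 4 batches, 3232; its part in these values was not tested.

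The strain effect on Nkain3 differed between Drd1+ and Drd2+ neurons, by the edgeR interaction test with an adjusted p of 7.74e-06; the mean log2 difference of Drd2+ minus Drd1+ neurons was 0.85 in CAST/EiJ, 0.96 in PWK/PhJ and 0.71 in WSB/EiJ, and -0.01 to 0.20 in the other strains.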

How the results depend on the processing

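Of the 10 member strain terms called, 5 held under every alternative: Nkain3 and Atp1b1 in Drd1+ neurons, Nkain3 in Drd2+ neurons, Atp1b2 in astrocytes and Atp1b1 in Drd1+ neuron_2. Of 23 named contrasts 12 did, and none reversed. The log2 difference of Nkain2 in CAST/EiJ, a description, was recomputed under settings of its own. They were CPM pooled over all nuclei, TMM-scaled totals, each batch left out and at least 20 nuclei. It kept its sign in all 62 values. These ran from -2.17 to -2.08 in Drd1+ neurons, -2.94 to -2.82 in oligodendrocytes and -0.98 to -0.31 in macrophages. They reuse the mice and counts for which the gene was chosen, so they are no separate support. Genes called without any 1 batch ranged from 1138 to 1675 in astrocytes (1767 with all), 628 to 780 in Drd1+ neuron_2 (958), 24 to 46 in Nxph1+ interneurons (61), 63 to 138 in endothelium (161) and 6 to 58 in Polydendrocyte/Oligodendrocyte (26); these fits hold fewer mice. Without any 1 batch, astrocyte contrasts called ranged from 1185 to 1826 higher (1934) and 740 to 1260 lower (1319). Member contrasts called higher ranged from 9 to 11 (14), and members called in the interaction from 1 to 2 (1). Without the low-count filter, 468 genes were called in Nxph1+ interneurons, 527 in endothelium and 221 in Polydendrocyte/Oligodendrocyte, and with DESeq2 109 in Nxph1+ interneurons and 75 in Polydendrocyte/Oligodendrocyte. Without the batch term, 71 genes were called in endothelium. Without the mouse as a block, the interaction called 69 genes in place of 631 and 0 members. That fit did not use the pairing of both clusters within a mouse, and the cause of the lower count was not tested. With at least 20 nuclei, endothelium and Polydendrocyte/Oligodendrocyte could not be fitted. The shallowest library, of Polydendrocyte/Oligodendrocyte, held 20750 counts.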
